A study of Arabidopsis with 8 samples.

Results

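The genes of the plastid genome are the rows of the deposited expression tables whose Arabidopsis locus identifier begins with ATCG. There were 78 such rows among the 25397 genes listed in at least 1 library. They stand for 69 gene symbols: 9 symbols have 2 rows each, because the plastid chromosome carries a large inverted repeat (rpl2, rpl23, ycf2, ycf15, ndhB, rps7, rps12 and the 16S and 23S ribosomal RNAs). Of the rows, 74 are protein-coding and 4 are ribosomal RNA.

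The plastid chromosome of land plants is the remnant of a cyanobacterial genome. It encodes core subunits of the photosynthetic complexes, the large subunit of Rubisco, part of the plastid ribosome and the core of a bacterial-type RNA polymerase. Most of its genes lie in operons that are transcribed together and then cut and processed, and the bacterial-type polymerase works with nuclear sigma factors, while phage-type polymerases of the nucleus transcribe rpoB, accD and a few other genes. Roots hold non-green plastids, and the green parts of the shoot hold chloroplasts.

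Seedlings of Arabidopsis thaliana were 5 days old. The 4 groups were Col-0 root, Col-0 shoot part, and the root and the shoot part of saur41/40/71/72, a quadruple mutant of the SAUR41 subfamily, which are small auxin up RNA genes. Col-0 is the wild type and carries none of the 4 mutations. Each group had 2 libraries, and values are FPKM, fragments scaled by transcript length and by the total of the library. Nothing in the labels tells whether the paired libraries of a group are separate plantings, so p-values measure only the spread between these libraries.

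Of the mutated genes, SAUR72 had root values of 23.4 and 31.6 FPKM (Col-0) against 16.9 and 16.3 (mutant), and shoot values of 9.41 and 7.57 against 4.18 and 3.96 FPKM. SAUR71 measured 7.91 and 5.22 FPKM in Col-0 shoot, against 3.28 and 3.02 in mutant shoot, and overlapped in root. SAUR41 overlapped between the genotypes in both tissues, and SAUR40 was at or near 0 in every library. A table of FPKM does not show where these genes carry their mutations. The tissue labels held for 5 of 6 root markers and 6 of 6 shoot markers, whose libraries did not overlap between the tissues. The root markers summed to between 394 and 417 FPKM in root and between 20.3 and 30.1 in shoot. The shoot markers summed to between 16638 and 31272 FPKM in shoot and between 17.1 and 25.7 in root, and FAMA, a factor of guard cell formation, was not listed in any root library. The 2 libraries of a group shared 0% identical FPKM values. The read depth behind the values is unknown.

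The plastid genes were far more abundant in shoot than in root. They took 1.81% and 3.28% of all FPKM in the Col-0 shoots and 1.05% and 1.84% in the mutant shoots. In root they took 0.0062% and 0.0158% in Col-0 and 0.00749% and 0.00984% in the mutant. Every shoot library thus lay above every root library, with a mean of 1.99% (SD 0.932, n = 4) against 0.00982% (SD 0.00424, n = 4), a ratio of 203. The exact 2-sided permutation test gave p = 0.0286, the smallest that 4 against 4 libraries allow. The ratio was 232 in Col-0 and 166 in the mutant, and with 2 against 2 libraries an exact permutation test cannot go below p = 0.333. Ribosomal RNA made up most of the plastid share in every library. The protein-coding members alone took a mean of 0.433% (SD 0.218) in shoot and 0.00354% (SD 0.00135) in root, a ratio of 123. The genes of the mitochondrial genome, by contrast, took between 0.0468% and 0.115% in root and between 0.0243% and 0.0649% in shoot, and overlapped. In bulk tissue, fewer plastids or green cells and less plastid RNA per cell cannot be told apart.

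**Figure D1:**
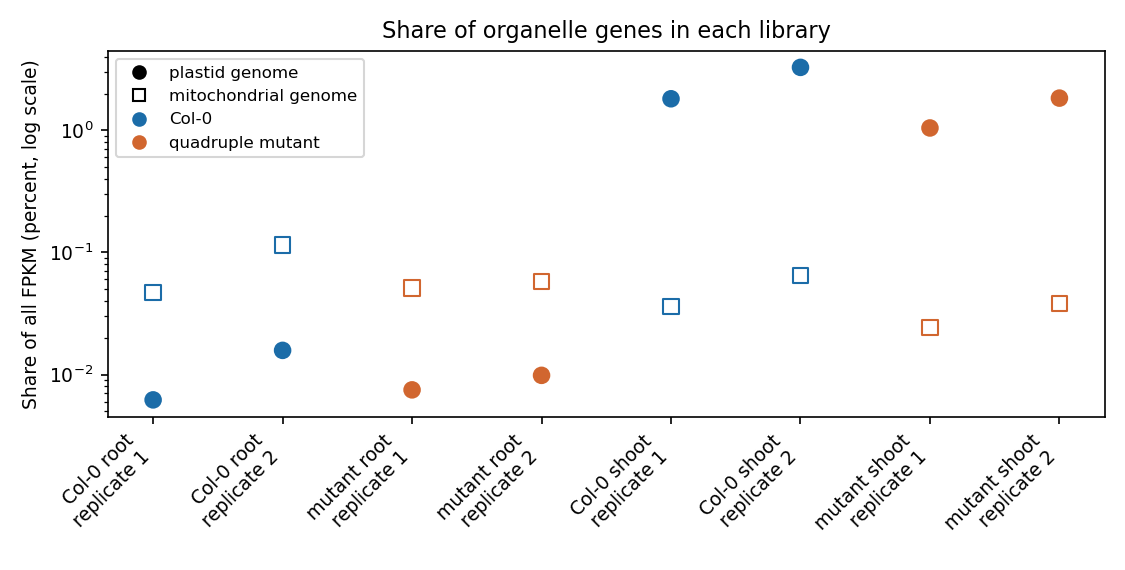
Share of all FPKM taken by genes of the plastid genome (filled circles) and of the mitochondrial genome (open squares) in each of the 8 libraries, in percent on a log scale. The plastid share runs from 1.05% to 3.28% in the shoot libraries and from 0.0062% to 0.0158% in the root libraries, and the second Col-0 library is the highest of its tissue for both organelles.

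Of the 78 rows, 74 had all 4 shoot values above all 4 root values, against 15.6% of the 19985 genes tested. In the limma fit over all tested genes, 71 members fell in root relative to shoot in Col-0 (background 15% lower, 87.2% in either direction) and 72 in the mutant (background 17.7% lower, 76.4% in either direction), and none rose. The background depended on scaling. After rescaling of the libraries by the median ratio, 30.5% of all tested genes were lower and 32.9% higher in Col-0, and 28.3% and 30.8% in the mutant, with 72 members lower in either genotype. In that form the median change of all tested genes was 0.10 in Col-0 and 0.07 in the mutant. The counts support nothing further, because 72 of the 78 rows had a mean below 1 FPKM in root, so nearly all entered the test through their shoot values. In all, 76 rows passed the filter, and rps15 and rps16, for ribosomal proteins of the small subunit, did not. The median log2 change of the tested members was -3.20 in Col-0 and -2.75 in the mutant, while that of all tested genes was 1.23 and 0.81. Log2 changes here are of FPKM plus 1, which understates the change of low genes.

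A photosystem II gene stood highest among the protein-coding members. psbA, which encodes the D1 protein of the photosystem II reaction centre (ATCG00020, TAIR10 plastid chromosome, 383 to 1444), measured 1110.3 and 1658 FPKM in Col-0 shoot, against 574 and 1115 in mutant shoot. Its root values were 2.49 and 3.28 (Col-0) and 1.56 and 3.67 FPKM (mutant). The tissues were wide apart and the genotypes overlapped within each. Its shoot mean was 405 times its root mean, and its log2 change of -8.46 between root and shoot in Col-0 (SE 0.40, limma adjusted p = 2.32e-06) was the largest of any member. The photosystem II core genes psbD, for the D2 protein, psbC and psbB, for the core antenna proteins, had shoot means of 97.3, 136 and 71.5 FPKM and root means of 0.405, 0.727 and 0.248 FPKM. psbD and psbC overlap on the chromosome and share 1 merged locus in the deposited tables, so reads could be divided between them in an unknown way. The small subunit genes psbE, psbK, psbH and psbZ were lower, with shoot means from 2.41 to 12.6 FPKM. psbK, psbH and psbZ were not listed in any root library, and psbZ was also not listed in Col-0 shoot replicate 1.

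Rubisco fixes carbon dioxide, and its large subunit gene rbcL (ATCG00490, 54958 to 56397) was the next protein-coding gene by level. It measured 340 and 587 FPKM in Col-0 shoot, against 213 and 357 in mutant shoot. The root values were 0.519 and 1.90 FPKM in Col-0 and 0.859 and 0.818 in the mutant. Its shoot mean was 365 times its root mean (log2 change -7.74 in Col-0, SE 0.40, limma adjusted p = 3.50e-06).

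Photosystem I, the cytochrome b6f complex and the ATP synthase came at intermediate levels. psaB (ATCG00340, 37375 to 39579), for a reaction centre protein of photosystem I, measured 24.8 and 140 FPKM in Col-0 shoot, against 64.6 and 65.4 in mutant shoot. Both mutant values thus lay between the 2 Col-0 values. In root psaB measured 0.298, 1.16, 1.14 and 0.866 FPKM (Col-0 first), with a shoot to root ratio of 85.2. Its partner psaA was close to it, with a shoot mean of 69.0 against 73.8 FPKM. psaC, for the iron-sulphur subunit, had a shoot mean of 7.73 FPKM. petB (ATCG00720, 74841 to 76292), for cytochrome b6, measured 34.1 and 108 FPKM in Col-0 shoot, against 34.6 and 57.1 in mutant shoot. Col-0 shoot replicate 2 was the highest, and the genotypes overlapped. In root petB stood at 0.251, 0.833, 0.453 and 0.544 FPKM (Col-0 first), and its shoot mean was 112 times its root mean.

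atpA (ATCG00120, 9938 to 11461), for the alpha subunit of the ATP synthase, measured 34.9 and 215 FPKM in Col-0 shoot, against 55.3 and 89.8 in mutant shoot. Its root values were 0.0607 and 0.581 (Col-0) and 0.253 and 0.554 FPKM (mutant). In both tissues the 2 Col-0 libraries spanned the mutant ones. The 6 ATP synthase genes had shoot means from 19.3 (atpI) to 98.7 FPKM (atpA) and root means from 0.104 (atpH) to 0.851 FPKM (atpB). atpB (ATCG00480), for the beta subunit, measured 24.9, 70.4, 32.9 and 39.5 FPKM in shoot and 0.299, 1.86, 0.920 and 0.323 in root (Col-0 first). It shares a merged locus (52265 to 54156) with atpE, for the epsilon subunit.

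The NDH complex carries electrons back from the photosystem I side to the plastoquinone pool. ndhD (ATCG01050, 115665 to 117185) was its highest gene in shoot, with 17.4 and 63.1 FPKM (Col-0) against 18.7 and 31.6 (mutant). Its root values were 0.289 and 0.246 (Col-0) and 0.234 and 0.0690 FPKM (mutant). Both mutant values were below both Col-0 values in root, and the genotypes overlapped in shoot. ndhC, ndhE and ndhJ were not listed in any root library. ndhH (ATCG01110, 122011 to 123192) was the highest ndh gene in root, at 0.0773, 0.392, 0.289 and 0.191 FPKM (Col-0 first), and measured 2.02, 13.2, 5.25 and 4.36 FPKM in shoot. The 12 ndh rows had shoot means from 5.77 (ndhC) to 32.7 FPKM (ndhD).

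Of the genes for expressing the plastid genome itself, those for ribosomal proteins and the polymerase stood lower in shoot than the photosynthesis genes, by the median of each function. Their median shoot to root ratios were also smaller, but single genes crossed, with rps19 at 75.7 and psaC at 21.0. rpl2, for a protein of the large ribosomal subunit, was the highest ribosomal protein gene; its second copy (ATCG01310, 152806 to 154312) measured 12.1 and 36.1 FPKM in Col-0 shoot, against 15.9 and 15.7 in mutant shoot. Its root values were 0.102, 0.820, 0.317 and 0.358 FPKM (Col-0 first), and the genotypes overlapped in both tissues. rps18 (ATCG00650, 67917 to 68222) was the highest in root, with 0.513 and 1.74 FPKM (Col-0) against 0.701 and 0.239 (mutant). Its shoot values were 4.08 and 13.3 FPKM in Col-0 and 3.68 and 4.23 in the mutant, 7.91 times root on the means, the lowest ratio of any member listed in root. The 24 ribosomal protein rows had shoot means from 0.479 (rps16) to 19.9 FPKM (rpl2). Their median shoot to root ratio was 37.1 over the 15 of 20 genes listed in root.

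rpoB (ATCG00190, 23111 to 26329) encodes the beta subunit of the bacterial-type polymerase. It measured 0.375 and 0.630 FPKM in Col-0 root, against 0.435 and 0.597 in mutant root. Its shoot values were 0.946 and 8.16 (Col-0) and 5.09 and 4.73 FPKM (mutant). Its shoot mean was 9.29 times its root mean, and its log2 change of -1.50 in Col-0 (SE 0.62, limma adjusted p = 0.0553) did not pass. Col-0 shoot replicate 1 was the only shoot library near the root level. Without that library 75 members fell in root relative to shoot in Col-0 (background 18.1% lower), and without Col-0 shoot replicate 2 the count was 73 (background 15.6%). rpoA (ATCG00740, 77901 to 78890), for the alpha subunit, was the highest polymerase gene in shoot, with 3.28 and 25.1 FPKM (Col-0) against 7.74 and 9.42 (mutant). Its root values were 0.403 and 0.404 FPKM in Col-0 and 0.327 and 0.256 in the mutant, where both mutant values were the lower ones. rpoC1 and rpoC2, for the remaining subunits, had shoot means of 5.84 and 4.14 FPKM and root means of 0.394 and 0.183 FPKM.

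Among the remaining genes, accD, clpP, ycf1 and ycf2 encode proteins that plastids need outside photosynthesis. accD (ATCG00500, 57075 to 58541), for a subunit of the acetyl-CoA carboxylase of fatty acid synthesis, measured 3.98 and 11.1 FPKM in Col-0 shoot, against 4.04 and 5.72 in mutant shoot. In root it stood at 0.403, 1.12, 0.283 and 0.488 FPKM (Col-0 first). Its shoot mean was 10.8 times its root mean, close to that of rpoB. clpP (ATCG00670, 69910 to 71882), for a protease subunit, measured 9.98 and 22.6 FPKM in Col-0 shoot, against 9.39 and 11.1 in mutant shoot. In root it was at 0.553, 0.985, 1.15 and 0.746 FPKM (Col-0 first), and the ratio was 15.4. The corresponding ratio was 16.3 for ycf1 (ATCG01130, 123884 to 129244), assigned to the protein import machinery of the envelope, and 24.8 for ycf2 (ATCG00860, 86474 to 93358). ycf1 measured 2.54, 9.65, 3.96 and 3.48 FPKM in shoot and 0.214, 0.471, 0.250 and 0.270 in root (Col-0 first). ycf2 measured 0.764, 4.91, 1.58 and 1.93 FPKM in shoot and 0.0683, 0.126, 0.0905 and 0.0860 in root. For both genes the 2 Col-0 shoots spanned the mutant shoots. The ratios were higher for ycf4 (60.6), for an assembly factor of photosystem I, and cemA (69.0), for a protein of the inner envelope. matK, for a maturase of group II introns, had the highest ratio in this group. It measured 47.3, 150, 40.5 and 81.9 FPKM in shoot and 0.332, 0.841, 0.101 and 0.280 in root (Col-0 first), and its shoot mean was 205 times its root mean. The deposited locus of matK (ATCG00040, 1717 to 4347) spans 2631 bases, while the coding gene in the RefSeq table is 1515 bases long.

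The ribosomal RNAs had the highest values. 16S ribosomal RNA (first copy ATCG00920, 101012 to 102502) measured 2777 and 4477 FPKM in Col-0 shoot, against 1345 and 2461 in mutant shoot. Its root values were 7.38 and 18.4 (Col-0) and 7.46 and 11.2 FPKM (mutant). Its copies differed by less than 1 FPKM in every library, as did those of 23S ribosomal RNA. Reads from identical copies cannot be told apart. The 23S values were 2610.0, 3921, 1295 and 2185 FPKM in shoot and 6.28, 16.8, 6.93 and 9.02 in root (first copy, Col-0 first). The log2 change between root and shoot in Col-0 was -8.11 for 16S (SE 0.48, limma adjusted p = 6.27e-06) and -8.13 for 23S (SE 0.46, limma adjusted p = 4.93e-06). Ribosomal RNA made up between 58.7% and 66.1% of plastid FPKM in root and between 75% and 83% in shoot. The sources used here do not give the library type, and how ribosomal RNA was treated before sequencing is unknown.

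**Figure D2:**
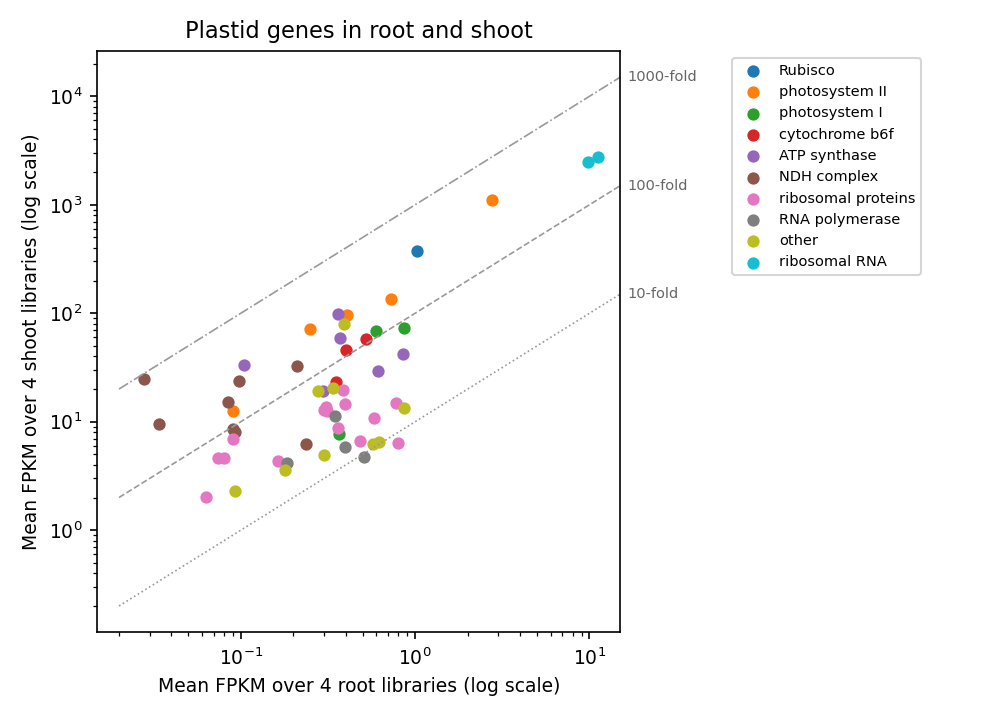
Mean FPKM of each plastid gene over the 4 shoot libraries against its mean over the 4 root libraries, both on log scales, coloured by function, with lines at fixed ratios. One copy of each repeated gene is drawn, and the 13 genes not listed in any root library are left out. Photosynthesis genes lie mostly near or above the middle line, with psbA at a ratio of 405, and ribosomal protein and polymerase genes lie below it, with rpoB at 9.29.

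Ordered by the median shoot to root ratio of their genes, Rubisco (365, 1 gene), ribosomal RNA (252), photosystem II (240), the NDH complex (168), ATP synthase (112) and cytochrome b6f (112) came first. Photosystem I (85.2), the ribosomal proteins (37.1), the other genes (20.2) and the RNA polymerase (18.7) followed. These ratios cover only genes listed in at least 1 root library. Within a function they varied widely, from 26.1 for ndhH to 881 for ndhG in the NDH complex, where ndhG was listed in a single root library at 0.111 FPKM. Across the 67 distinct protein-coding genes, Spearman's rho between the mean root and mean shoot levels was 0.626, as a description, since all genes come from the same libraries.

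The make-up of the plastid protein-coding transcripts was compared between the tissues by function. Photosystem II took a mean of 50.2% of plastid protein-coding FPKM in shoot (59.4% and 46.2% in Col-0, 43.4% and 51.7% in the mutant) and 18.6% in root (21.7%, 15.8%, 15.4% and 21.3%). Rubisco took 13.1% in shoot and 4.17% in root. The ribosomal proteins took 6.35% in shoot, from 3.96% to 9.03%, and 27.1% in root, from 23% to 30.0%. The RNA polymerase genes took 0.848% in shoot and 6.28% in root, and the other genes 5.46% and 16%. For these 5 of 9 functions the 4 shoot and 4 root libraries did not overlap. Each had an exact 2-sided permutation p of 0.0286, the smallest possible, and a Benjamini-Hochberg adjusted p of 0.0514 over the 9 functions, so 0 of 9 passed at 0.05. Photosystem I, cytochrome b6f, ATP synthase and the NDH complex overlapped between the tissues, with adjusted p from 0.171 to 0.543.

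psbA alone was a large part of these shares. It took between 32.7% and 50.3% of plastid protein-coding FPKM in the shoot libraries and between 7.68% and 17.4% in the root libraries. Without psbA, 6 of 9 functions passed, each with an adjusted p of 0.0429 by the exact permutation test: photosystem II, Rubisco and the NDH complex were higher in shoot by 11.1, 17.5 and 3.59 percentage points, and the ribosomal proteins, the polymerase and the other genes were lower (-20.8, -5.88 and -9.31 points). In that form the shares of cytochrome b6f and ATP synthase, lower in shoot with psbA, were higher in shoot by 1.04 and 2.92 points. Every function without overlap has the same smallest possible p, so the adjusted value depends only on how many functions do not overlap. It fell below 0.05 because the NDH complex joined them, and the test gave no stronger result for the others. The ratio of summed photosynthesis FPKM to summed ribosomal protein and polymerase FPKM was 1.32, 1.41, 1.58 and 1.84 in root and 21.5, 10.4, 8.26 and 14.4 in shoot (Col-0 first). The root and shoot ratios did not overlap.

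**Figure D3:**
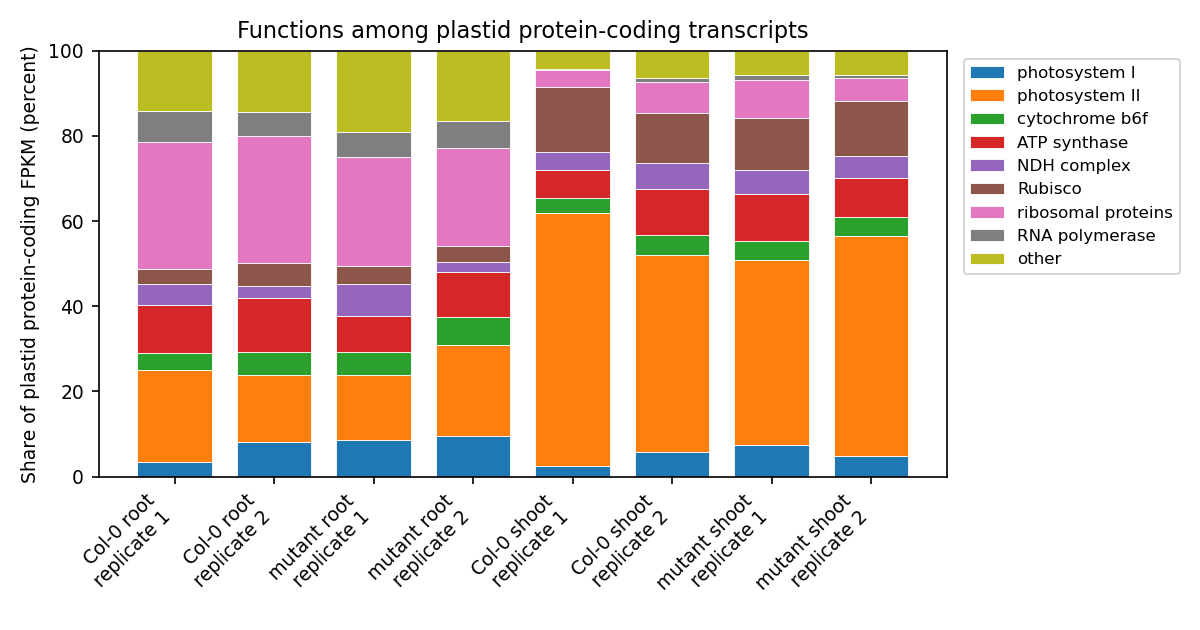
Make-up of the plastid protein-coding FPKM of each library by function, in percent, stacked to 100 percent. Photosystem II fills 43.4% to 59.4% of the shoot bars and 15.4% to 21.7% of the root bars, and ribosomal proteins fill 3.96% to 9.03% and 23% to 30.0%.

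Genotype was compared within each tissue. The plastid share of all FPKM in shoot was 1.44% (SD 0.559, n = 2) in the mutant and 2.54% (SD 1.04, n = 2) in Col-0, with overlapping libraries (exact permutation p = 0.667). In root it was 0.00866% (SD 0.00167, n = 2) and 0.0110% (SD 0.00676, n = 2), also overlapping (exact permutation p = 1). With 2 libraries a group the smallest possible p is 0.333, so no difference of this share could pass.

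In root no plastid gene passed in the limma fit (background 0.01% of tested genes in either direction), and no member was below an unadjusted p of 0.05 (background 2.57%). This cannot show that the genotypes are alike in root. Of the plastid rows, 72 had a root mean at or under 1 FPKM, so nearly all entered the test through their shoot values. Rows at 0 in every root library can only have a change of 0. The fit also shares 1 spread over the groups, so the gap between the Col-0 shoots enters the root errors. With each pair of groups fitted alone, the count passing in root was also 0. The median log2 change of the tested members was -0.01. Both mutant roots were below both Col-0 roots for 5 rows (background 22.9%): matK, atpI, rpoA, rpl16 and ndhD. They were above for 1 row (background 20.5%), the short copy of ycf1 at the edge of the inverted repeat, which shares a merged locus with ndhF. rpl16, for a ribosomal protein, measured 1.22 and 1.24 FPKM in Col-0 root, against 0.252 and 0.386 in mutant root. The short ycf1 copy measured 0.0160 and 0.273 FPKM (Col-0) against 1.53 and 0.654 (mutant). These members are named because their libraries did not overlap, after their values were seen. Both shares of non-overlapping rows lay below the background. The 14 rows at 0 in every root library can only overlap, so these shares are no result about the members.

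In shoot 1 plastid gene passed, rpl33, which encodes a protein of the large ribosomal subunit that tobacco plastids can do without outside the cold (ATCG00640, 67488 to 67688). It measured 1.53 and 2.31 FPKM in Col-0 shoot, against 0.452 and 0.424 in mutant shoot, and it was not listed in any root library. Both mutant values were below both Col-0 values, and the log2 change was -1.01 with an SE of 0.13 and a limma adjusted p of 0.0460. This is 1 of 76 tested members, where 0.06% of all tested genes were called lower and 0.961% higher. All 4 of its root values were 0, and the fit shares 1 spread over the groups. Its call was lost without any single root or mutant shoot library (adjusted p 0.153 to 0.344). Without either Col-0 shoot library it stayed below 0.05. At a pseudocount of 0.5 FPKM the adjusted p was 0.0511, once a gene length trend was removed it was 0.0523, and with each pair of groups fitted alone it was 0.333.

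Both mutant shoots were below both Col-0 shoots for 8 rows (background 9.48%) and above for none (background 56.8%). The 8 rows are rpl33, the 4 ribosomal RNA rows, ndhJ, ndhE and psaC. ndhJ measured 5.51 and 15.9 FPKM (Col-0) against 3.67 and 4.85 (mutant), ndhE 6.31 and 13.7 against 4.64 and 5.73, and psaC 7.80 and 11.6 against 5.80 and 5.68. Of these, rpl33, ndhJ and ndhE were below an unadjusted p of 0.05 (limma), 3 of 76 tested members beside 3.52% of all tested genes lower at that p, and ndhJ and ndhE had adjusted p of 0.119 and 0.121. The median log2 change of the tested members was -0.38 (0.17 once plastid values were scaled to their mean protein-coding total, which takes out by construction any change the members share), while that of all tested genes was 0.31. Among the most abundant members, the log2 change was -0.76 for psbA (limma adjusted p = 0.197), -0.69 for rbcL (limma adjusted p = 0.233) and -0.95 for 16S ribosomal RNA (limma adjusted p = 0.177), and none passed. By function the median ran from -0.94 for ribosomal RNA to 0.11 for photosystem I. No plastid gene passed for the difference between the genotype effects of the tissues (background 0% in either direction), and 1 of 76 members was lower at an unadjusted p under 0.05 (limma, background 1.2%).

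**Figure D4:**
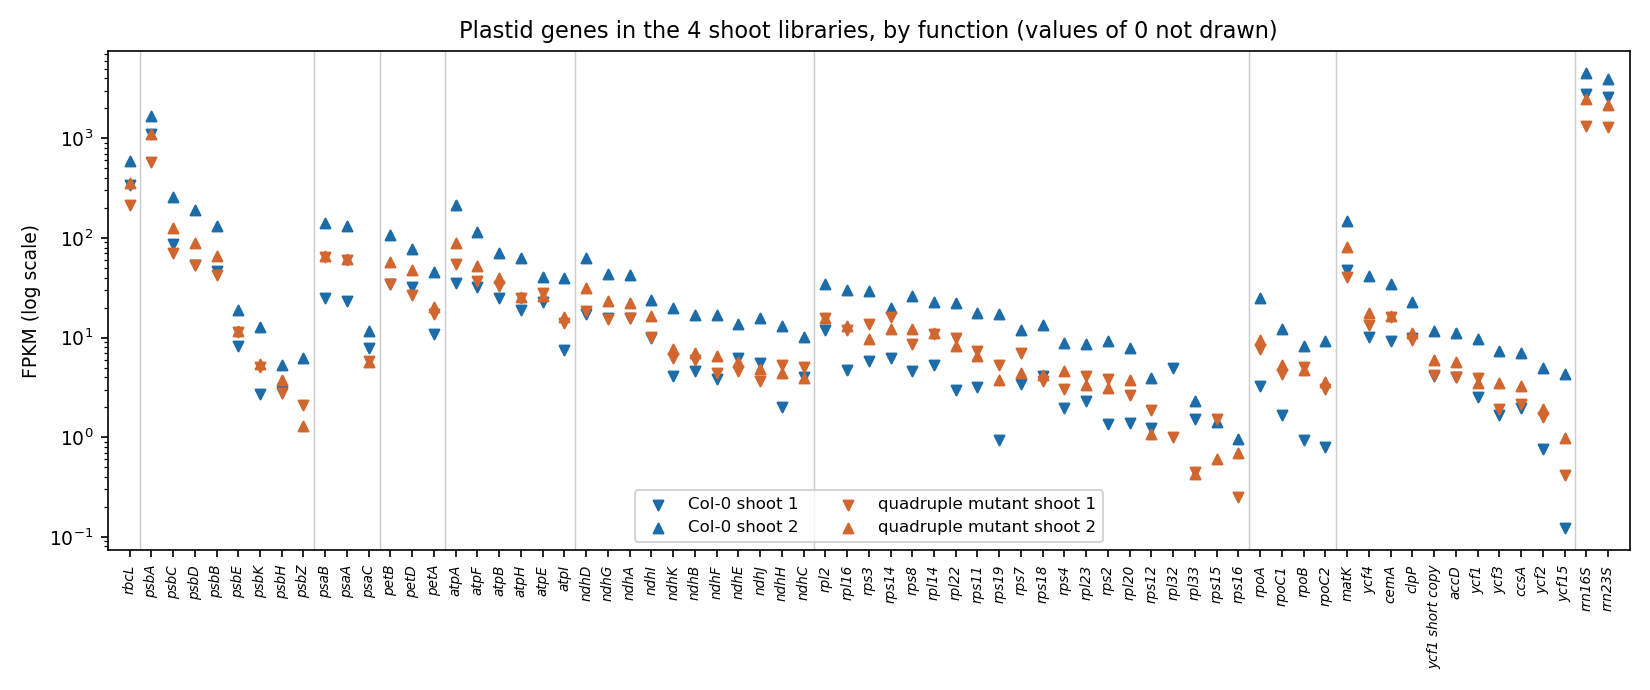
FPKM of each plastid gene in the 4 shoot libraries on a log scale, grouped by function and ordered by mean, with 1 copy of each repeated gene and values of 0 left out. The upward blue triangle, Col-0 shoot replicate 2, is the top mark for nearly every gene, and the downward blue triangle, Col-0 shoot replicate 1, is often the lowest.

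By the ratio of replicate 2 to replicate 1, the Col-0 shoot libraries lay further apart than the mutant ones for most plastid genes. This did not hold for ribosomal RNA and psbA, and for rbcL the ratios were alike, at 1.73 in Col-0 and 1.67 in the mutant. Col-0 shoot replicate 2 was the highest of the 4 shoot libraries for 76 of 78 rows, while it was the highest for 11.5% of all tested genes. Col-0 shoot replicate 1 was the lowest for 57 rows, and its share over all tested genes was not counted. For 56.8% of all tested genes both mutant shoots lay above both Col-0 shoots, so a Col-0 shoot was often the lowest there too. The median ratio of replicate 2 to replicate 1 over protein-coding members was 3.62 in Col-0 and 1.18 in the mutant. In Col-0 root the second library was also the highest of its tissue for 42 rows, beside 27.9% of all tested genes. Of the 78 rows, 14 were not listed in any root library and so have no highest one. The mitochondrial share was highest in the same 2 Col-0 libraries, at 0.115% in root and 0.0649% in shoot.

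The genotype calls in shoot turned on which Col-0 library was kept. Without Col-0 shoot replicate 1, 61 of 76 tested members were lower and 0 higher in the mutant, where 2.31% of all tested genes were lower and 23.8% higher. The median log2 change was -1.20 for the members and 0.17 for all tested genes. Without Col-0 shoot replicate 2, 33 members were higher and 2 lower, where 55.5% of all tested genes were higher and 10.5% lower. The medians were then alike, 0.45 for the members and 0.44 for all tested genes, and the members' share of higher calls lay below the background. For the difference between the tissues, 42 members were lower without the first library (background 0.726% lower, 9.66% higher). Without the second, 23 were higher and 2 lower (background 51.5% and 6.28%), again below the background. Leaving out any of the other 6 libraries gave 0 members in shoot. The plastid share of all FPKM in shoot, which is mostly ribosomal RNA, stayed lower in the mutant. The differences were -1.84 percentage points without Col-0 replicate 1 and -0.37 without replicate 2. They were -0.71 and -1.50 without the first and the second mutant library. Ribosomal RNA, psbA and rbcL also kept a negative sign without Col-0 shoot replicate 2. Their log2 changes were -0.62 (median of 4 rows), -0.47 and -0.30. Some lower members kept it too, among them psaC (-0.39) and ndhJ (-0.32), while the median of the members was positive. The share of the protein-coding members alone did not stay lower. Without Col-0 shoot replicate 2 it was higher in the mutant, with a mean of 0.340% against 0.308% in the Col-0 library left.

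The 2 Col-0 shoots differed unevenly between functions. Over the sum of its genes, replicate 2 exceeded replicate 1 by 8.14 times for the RNA polymerase, 5.06 for photosystem I, 4.04 for the ribosomal proteins, 3.83 for ATP synthase, 3.16 for the NDH complex and 3 for cytochrome b6f. It exceeded it by 1.74 times for photosystem II, 1.73 for Rubisco and 1.56 for ribosomal RNA, while in the mutant these ratios were of similar size, at 1.86, 1.67 and 1.76. The photosystem II sum was mostly psbA, whose ratio was 1.49 in Col-0 and 1.94 in the mutant. The median gene of photosystem II had a ratio of 2.78 in Col-0 and 1.46 in the mutant, with 3.62 for psbD and 4.67 for psbK in Col-0. The extreme members were ycf15 at 34.6 times, from 0.124 to 4.27 FPKM, and rps19 at 18.5 times, from 0.944 to 17.4 FPKM. Gene span was a weak match for this ratio among plastid genes (Spearman's rho 0.139 over 63 genes) and a closer one among nuclear genes above 1 FPKM in every shoot library (rho 0.606 over 14691 genes). In the mutant the values were 0.304 over 66 plastid genes and 0.0863 over the same nuclear genes. The part of gene span in this ratio was not tested. Removal of a gene length trend changed which members were called between the genotypes in shoot, as given at the end.

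**Figure D5:**
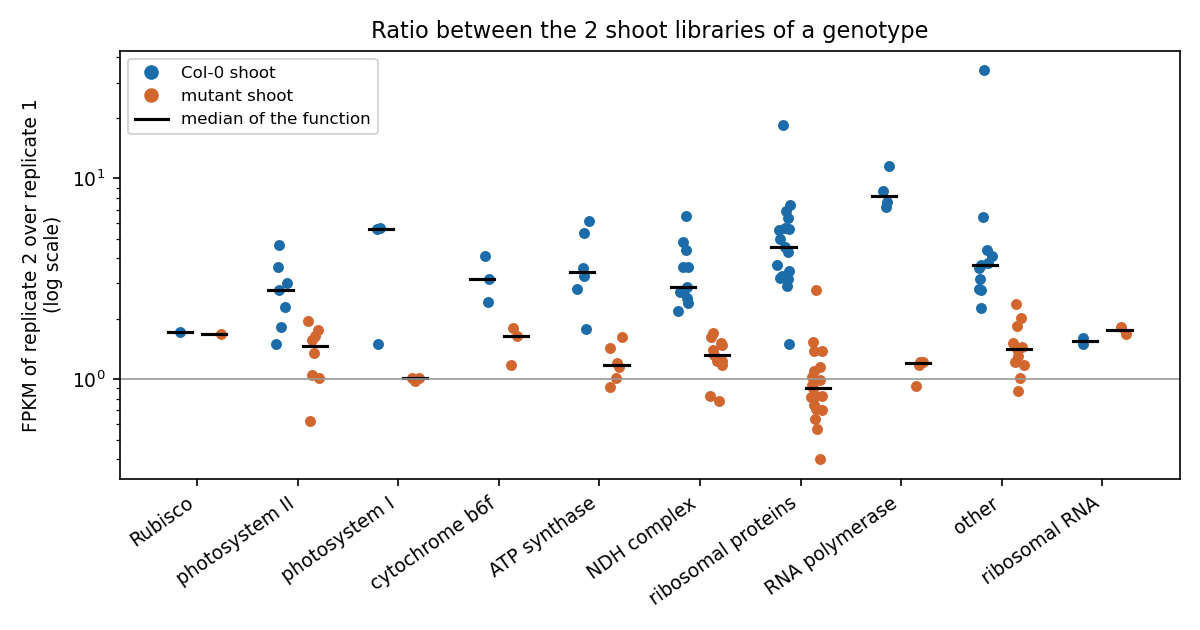
Ratio of replicate 2 to replicate 1 in shoot for each plastid gene listed in both, on a log scale, by function, with Col-0 in blue, the mutant in orange and the median of each function as a bar. The Col-0 points lie above 1 for all genes drawn and their median is highest for the RNA polymerase, and most mutant points lie nearer to 1.

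Levels within known operons were also set side by side, using operons picked after the values were seen. From rps2 to atpA, genes that are transcribed together in that order, the shoot means were 4.39 FPKM for rps2, 19.3 for atpI, 33.0 for atpH, 59.1 for atpF and 98.7 for atpA. psaA and psaB stood at 69.0 and 73.8 FPKM, and rps14 at the end of the same operon at 13.5. In the psbB operon, psbB, petB and petD stood at 71.5, 58.4 and 46.1 FPKM and psbH between them at 3.67. In other operons the genes stood closer together. rpoB, rpoC1 and rpoC2 stood at 4.73, 5.84 and 4.14 FPKM, and ndhC, ndhK and ndhJ at 5.77, 9.44 and 7.47. The differences within an operon hold in FPKM, and short genes were low in general, although rps2 and atpI span 711 and 750 bases. The 12 distinct protein-coding genes with a span under 300 bases had a median shoot mean of 4.13 FPKM, against 12.8 for the longer genes, and Spearman's rho between span and shoot mean was 0.364 over 67 genes.

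Short genes were also those without a row. For the plastid, RefSeq (assembly TAIR10.1) gives 78 protein-coding symbols, of which 65 had a row here. The 13 without a row are 90 to 135 bases long: psbF, psbI, psbJ, psbL, psbM, psbN, psbT, petG, petL, petN, psaI, psaJ and rpl36, while the shortest locus with a row spans 159 bases. Of 37 plastid transfer RNA genes, 0 had a row. Of the 13 genes not listed in any root library, 11 span under 500 bases. The number of members listed was 51 and 57 in the Col-0 roots, 54 and 56 in the mutant roots, 75 and 77 in the Col-0 shoots, and 78 and 77 in the mutant shoots, and 44 were listed in all 8 libraries.

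Nuclear genes that serve the plastid genome were read from 5 lists and compared with the mitochondrial genes. In root relative to shoot in Col-0, all 22 nuclear subunits of the same photosynthetic complexes fell (limma, background 15%), with a median log2 change of -6.75. Of the 12 proteins associated with the bacterial-type polymerase 10 fell, of the 6 sigma factors 4 fell, and of the 16 factors of plastid RNA processing and stability 13 fell and 1 rose. SIG4 had the largest change of the sigma factors (-3.32, SE 0.27, limma adjusted p = 2.83e-05), and SIG5 did not differ beyond its error (-0.01, SE 0.22, limma adjusted p = 0.979). RPOTMP, a phage-type polymerase of plastids and mitochondria, rose (background 72.1%) by 2.04 (SE 0.27, limma adjusted p = 0.000323). It stood at 6.37, 7.24, 6.96 and 7.37 FPKM in root and at 0.418, 1.53, 1.46 and 1.87 in shoot (Col-0 first). RPOTP, the plastid phage-type polymerase, stood at 5.89, 5.99, 6.57 and 6.71 FPKM in root and at 2.54, 10.5, 15.3 and 16.5 in shoot, and did not pass in Col-0. Of the 35 tested mitochondrial genes, 8 rose in root and none fell (background 72.1% higher and 15% lower). With median-ratio rescaling none rose and 12 fell (background 32.9% higher and 30.5% lower), so the falls lay near the background. Beside the same background, that rescaling gave 22 of 22 nuclear subunits lower, 12 of 12 polymerase-associated proteins, 6 of 6 sigma factors and 15 of 16 RNA processing factors. SIG5 was then at -1.34, and RPOTMP was still higher in root at 1.16 (SE 0.25, limma adjusted p = 0.00570).

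Between the genotypes, no member of these lists passed in either tissue (limma, background 1.02% in shoot and 0.01% in root). In shoot, the median log2 changes were 0.92 for the sigma factors, with 6 of 6 positive, 0.77 for the polymerase-associated proteins, with 11 of 12 positive, and 0.52 for the RNA processing factors, with 13 of 16 positive. They were -0.32 for the nuclear subunits, with 6 of 22 positive, and -0.23 for the mitochondrial genes, with 4 of 35 positive, beside 0.31 for all tested genes. SIG1 measured 16.4 and 48.2 FPKM in Col-0 shoot, against 71.8 and 75.2 in mutant shoot (limma adjusted p = 0.0905). PAP3 measured 6.09 and 20.6 FPKM (Col-0) against 27.9 and 28.4 (mutant) (limma adjusted p = 0.107), and MRL1, a factor that stabilises the rbcL transcript, at 7.75 and 27.2 against 37.3 and 36.0 (limma adjusted p = 0.112). SIG6 (9.39, 31.7, 41.1 and 40.9 FPKM), PAP11 (5.00, 15.5, 20.3 and 20.4) and the ribonuclease E gene RNE (2.38, 10.3, 11.8 and 12.5) were also lowest in Col-0 shoot replicate 1. In each of these genes Col-0 shoot replicate 1 was the low library and replicate 2 lay nearer to the mutant. The nuclear small subunit gene RBCS3B ran the other way in Col-0, at 18636 and 14098 FPKM, with 12472 and 10673 in the mutant. The mitochondrial ribosomal RNA gene RRN18 was highest in Col-0 shoot replicate 2, at 84.4 and 134 FPKM in the Col-0 shoots and 47.9 and 76.1 in the mutant shoots (limma adjusted p = 0.258). The list medians moved with the Col-0 library kept. Without replicate 1 they were 0.40 for the sigma factors, 0.29 for the polymerase-associated proteins, 0.14 for the RNA processing factors, -0.11 for the nuclear subunits and -0.60 for the mitochondrial genes. Without replicate 2 they were 1.46, 1.24, 1.05, -0.50 and -0.03. Of the list members, 10 were higher and 5 lower in the mutant without replicate 1 (background 23.8% and 2.31%), and 31 higher and 19 lower without replicate 2 (background 55.5% and 10.5%).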

How the data were processed

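Per the labels' protocols, frozen parts of seedlings 5 days old were extracted with TRIzol for total RNA, and a company built libraries for an Illumina HiSeq. The authors deposited 1 table of FPKM values per library, on build TAIR10 per the submitters' processing notes, with only genes above 0 listed. A gene not listed was taken as 0. The sources used here do not give the aligner, the FPKM program, the library type, strand or read number, and the depth is unknown beyond a ratio within a tissue: read from the steps between low values, it was 0.873, 1.08 and 1.03 relative to Col-0 root replicate 1 and 0.891, 1.19 and 1.22 relative to Col-0 shoot replicate 1. FPKM are no counts, so no count model was run. No column of values was left unused.

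Starts are given with 1 added to the deposited start. Overlapping genes share a merged locus in 8 plastid rows. Symbols come from the deposited names, of which 67 of 69 matched the RefSeq table. Functions follow the symbol (psa, psb, pet, atp, ndh, rbcL, rps and rpl, rpo, rrn, all others).

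In R 4.3.3, limma 3.58.1 was run on log2(FPKM + 1) with 4 groups and all 19985 genes with a mean of at least 1 FPKM over the 4 libraries of root or of shoot, with trended, robust moderation and 4 residual degrees of freedom, and p-values were adjusted by Benjamini-Hochberg at 0.05. The fit was tested on simulated data. Shares were compared with exact permutation tests (scipy 1.17.1). The members and lists were chosen with earlier results of these data known, and the lists were written from general knowledge. Named are the genes that passed between genotypes, the highest gene of each function in each tissue, the 5 largest root to shoot changes, rbcL, psbA, accD, clpP, rpoB, ycf1 and ycf2, and 2 genes of each list; others were chosen after their values were seen. Alternatives are given at the end. No sequences are shown.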

Additional observations from a re-analysis of the deposited data

How the results depend on the processing

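The count of plastid genes passing between the genotypes in shoot was 1. It was 0 with a pseudocount of 0.1 or 0.5 FPKM, without the filter, with the replicate block and with only the compared groups in the fit. It was also 0 with plastid values scaled to the mean plastid protein-coding total, an alternative chosen after seeing the data. With a mean of at least 5 FPKM the count was 0 too, but rpl33, with a shoot mean of 1.18 FPKM, was not tested there. The count was 4 lower with quantile normalization (rpl33, ndhJ, ndhE and psbH). Once a gene length trend was removed it was 3 lower, both ycf2 rows and ycf1, with rpl33 lost (adjusted p = 0.0523). It ran from 0 to 61 with 1 library left out. Median-ratio rescaling moved the median of all genes there from 0.31 to 0 and that of the members from -0.38 to -0.71. For the difference between the tissues the count was 0 and from 0 to 42 with 1 library left out. The list members passing in shoot numbered 0, but 1 with quantile normalization, 3 without the length trend and from 0 to 50 with 1 library left out. The counts of members lower in root were 71 in Col-0 and 72 in the mutant and lay between 56 and 75 under all alternatives run.

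The shoot minus root difference in plastid share was 1.98 percentage points. The replicate block gave the same difference with an exact permutation p of 0.0556, and leaving out 1 library gave 1.55 to 2.30 points with p = 0.0571, the smallest that 3 against 4 libraries allow. The difference between the genotypes in root, -0.00232 points, was -0.00710 to 0.00247 with 1 library left out and turned positive without Col-0 root replicate 2. Of the function shares, 6 passed without psbA, because the NDH complex then also did not overlap between the tissues. In that form the ribosomal proteins, the polymerase and the other genes were lower in shoot (-20.8, -5.88 and -9.31 points), and cytochrome b6f and ATP synthase turned to 1.04 and 2.92. With shares of summed log2 values, cytochrome b6f (0.25), ATP synthase (1.16) and Rubisco (-0.51) changed sign. The cause was not tested. The replicate numbers are not shown to pair the libraries: same-numbered libraries of the genotypes correlated at 0.0431 in root and 0.118 in shoot. Root values near 0 and unknown depth limit every ratio to root.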
